A study of Mus musculus with 6 samples.

Results

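RISC-IP peaks that lay over coding sequence and touched no untranslated region were examined in mouse MSC myocytes. The peak lists of 5 libraries were merged wherever peaks overlapped or touched, and a merged interval was kept if it covered at least 1 bp of the coding sequence of a protein-coding transcript in GENCODE M21 (mm10) and no 5′ or 3′ untranslated region of any transcript. This gave 18321 CDS-only intervals among 41363 merged intervals, or 44.3% of them, in 5269 genes. Another 7033 intervals covered coding sequence together with 3′UTR, and 3881 covered 3′UTR without coding sequence. Without miR-222-IP 2, whose list was the longest, the number of CDS-only intervals was 11593.

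MSC are primary satellite cells, the stem cells of skeletal muscle. They were switched to differentiation medium for 30 h and then received a duplex RNA (10 nM in the labels, while the published description gives a higher dose): miR-222 in the miR-222-IPs and siGFP, a small interfering RNA against a jellyfish protein that mouse cells lack, in the control-IPs. RNA bound to the endogenous Ago2 protein was collected with an Ago2 antibody 16 h later. In experiment 1 there were 2 control-IPs (1 and 2) and 1 miR-222-IP, and in experiment 2 there were 2 control-IPs (3 and 4) and 1 miR-222-IP. Control-IP 3 had wide peaks and was left out of the merge, which leaves 3 control-IPs and 2 miR-222-IPs and no second miR-222-IP within an experiment. Mouse strain, age and the number of animals behind the cultures are not given in the sources used here, so p-values measure the spread between these libraries, which may be technical.

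Ago2 is the core of the RNA-induced silencing complex. It holds a miRNA, whose seed (bases 2 to 8) pairs with complementary sites in mRNAs. Sites in 3′UTRs are the best known, and sites in coding sequence can also be bound, although ribosomes pass over them. miR-222 and its relative miR-221 share a seed and are known to fall as myoblasts differentiate. The mature miR-222 (RefSeq, GRCm38) is shown with its seed in capitals, because the sites described below are its complement.
miR-222: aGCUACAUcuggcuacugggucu

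The 7-mer that pairs with this seed is ATGTAGC. It stood in the coding part of 7 CDS-only intervals that had a peak in both miR-222-IPs and in no control-IP. The sites are shown on the strand of the gene, 5′ to 3′, with the 7-mer in capitals, since these are the coding matches whose peaks were listed with miR-222 alone.
Lonp2: tgtgcgctcagATGTAGCcatgactgggg
Dip2b: atccagagtcaATGTAGCaatatgtttac
Nasp: gcggagtgggaATGTAGCcgaactggcac
Pex13: ggctgtattggATGTAGCaaatcactttt
Rmnd5a: aggaatgctggATGTAGCtgaggagcttt
Exoc5: gcacattagctATGTAGCtaccaaagtgt
Dicer1: caatgattgtaATGTAGCtgtacattcaa

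The Lonp2 site lay at chr8:86714047-86714053 (mm10, plus strand), in coding exon 14 of the gene for the peroxisomal Lon protease. Its interval scored 36.2 in miR-222-IP 1 and 63.2 in miR-222-IP 2. A score here is −log10 of the authors' peak p, and lists start at 20. Dip2b (chr15:100203283-100203289, plus strand, exon 32) scored 29.7 and 40.1. Nasp, a histone chaperone (chr4:116603920-116603926, minus strand, exon 11), scored 24.6 and 37.7. These 3 were among the 15 highest of the 30 CDS-only intervals that held a 7-mer and had a peak in both miR-222-IPs alone. The other 4 were added after their values were seen.

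Pex13, a docking protein for import into peroxisomes (chr11:23655729-23655735, minus strand, exon 2), scored 21.8 in miR-222-IP 1 and 55.9 in miR-222-IP 2. Dicer1, the enzyme that cuts miRNA precursors, held the 7-mer at chr12:104723945-104723951 (minus strand, exon 7), with scores of 21.6 and 25.5. Exoc5, of the exocyst complex (chr14:49048849-49048855, minus strand, exon 4), scored 35.0 and 23.2. Rmnd5a, a subunit of a ubiquitin ligase (chr6:71414801-71414807, minus strand, exon 3), scored 20.1 and 42.1. A control-IP without a listed peak had no peak or a score below 20, and the lower score of 6 of the 7 pairs lay under 30.

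These 7 were read against all intervals. A peak in both miR-222-IPs and no control-IP was found in 6.37% of all 41363 merged intervals and in 1360 CDS-only intervals, or 7.42%. Among the 119 CDS-only intervals with a coding 7-mer the share was 5.88%, and among the 279 with a 7-mer anywhere it was 10.8%. The reverse, a peak in all 3 control-IPs and in no miR-222-IP, occurred in 3 CDS-only intervals and in 4 intervals altogether. It needs a peak in control-IP 1, the shortest list (10579 peaks), and none in miR-222-IP 2, the longest (37762). The counts of the 2 patterns therefore cannot be compared.

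The libraries differed in list length and in marker genes. The lists held between 10579 peaks (control-IP 1) and 37762 peaks (miR-222-IP 2), with 20000 in control-IP 2, 21074 in miR-222-IP 1 and 17892 in control-IP 4. The number of reads behind them is not in the lists. Control-IP 3 held 3619 peaks with a median width of 32100 bp, and 4.81% of them were CDS-only, against 32.4 to 45.2% in the other libraries. Among the 14 muscle markers, all 14 had an exonic peak in miR-222-IP 2, 12 in miR-222-IP 1 and 10 in each of the 3 control-IPs, and the summed exonic scores were 1341 to 1669 in the control-IPs, 2121 in miR-222-IP 1 and 8249 in miR-222-IP 2. Mef2c weighed most in the control-IP sums. It had peaks in 7, 10 and 9 of its 12 exonic intervals in control-IPs 1, 2 and 4, with highest scores of 120, 194 and 189. No other muscle marker scored above 67.2 in these control-IPs. Myogenin (Myog) and the fetal acetylcholine receptor subunit Chrng had peaks in miR-222-IP 2 alone.

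Macrophage markers had peaks in cells labelled as satellite cell myocytes. The 5 genes of that list (Ptprc, Cd68, Adgre1, Csf1r and Lyz2) had exonic peaks in every library except for Ptprc in control-IP 1, and their summed scores were 2651, 3241 and 3709 in the control-IPs and 3585 and 4044 in the miR-222-IPs. Genes typical of microglia, a list added after the lists were seen, had exonic peaks in 10 of 10 genes in all 5 libraries, with summed scores of 2811 to 3214. The satellite cell markers Pax7 and Myf5 and all 4 adipocyte markers had no exonic interval. Fibroblast markers reached summed scores of 0 to 119 and endothelial markers 28.8 to 205. For Schwann cell markers the sums were 122 to 400, and Sox10 had no exonic interval. The part of these cell type signals in the results below was not tested. Fewer cells of a type and less RNA per cell cannot be told apart in bulk samples.

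The CDS-only intervals were mostly seen in few libraries. Control-IP 1 had a peak in 17.9% of them, control-IP 2 in 38.6%, control-IP 4 in 37.7%, miR-222-IP 1 in 45.8% and miR-222-IP 2 in 92.7%. Of all CDS-only intervals 44.0% had a peak in 1 library and 13.2%, or 2425, in all 5. miR-222-IP 2 alone accounted for 6868 intervals, whereas control-IP 1 alone gave 15. Intervals over coding sequence and 3′UTR were shared more widely, with 34% in all 5 libraries, and 3′UTR-only intervals lay between (19.9%).

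As a share of each library's own peaks, CDS-only peaks made up 32.4% in control-IP 1, 37.0% in control-IP 2, 39.7% in control-IP 4, 40.6% in miR-222-IP 1 and 45.2% in miR-222-IP 2. The control-IPs averaged 36.4% ± 3.69 (SD, n = 3). The miR-222-IP lay above the control-IPs of its experiment both times, by 5.89 and 5.52 percentage points, but an exact two-sided permutation test within experiments gave p = 0.333, where 6 arrangements cannot give less than 0.17. With the 10000 highest peaks of each library the shares were 31.9, 31.1 and 34.3% in the control-IPs and 33.3 and 30.3% in the miR-222-IPs, and the mean difference was −1.06 points (exact permutation p = 1). At equal list length the experiments differed in sign, with 1.86 points in experiment 1 and −3.98 in experiment 2.

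**Figure D1:**
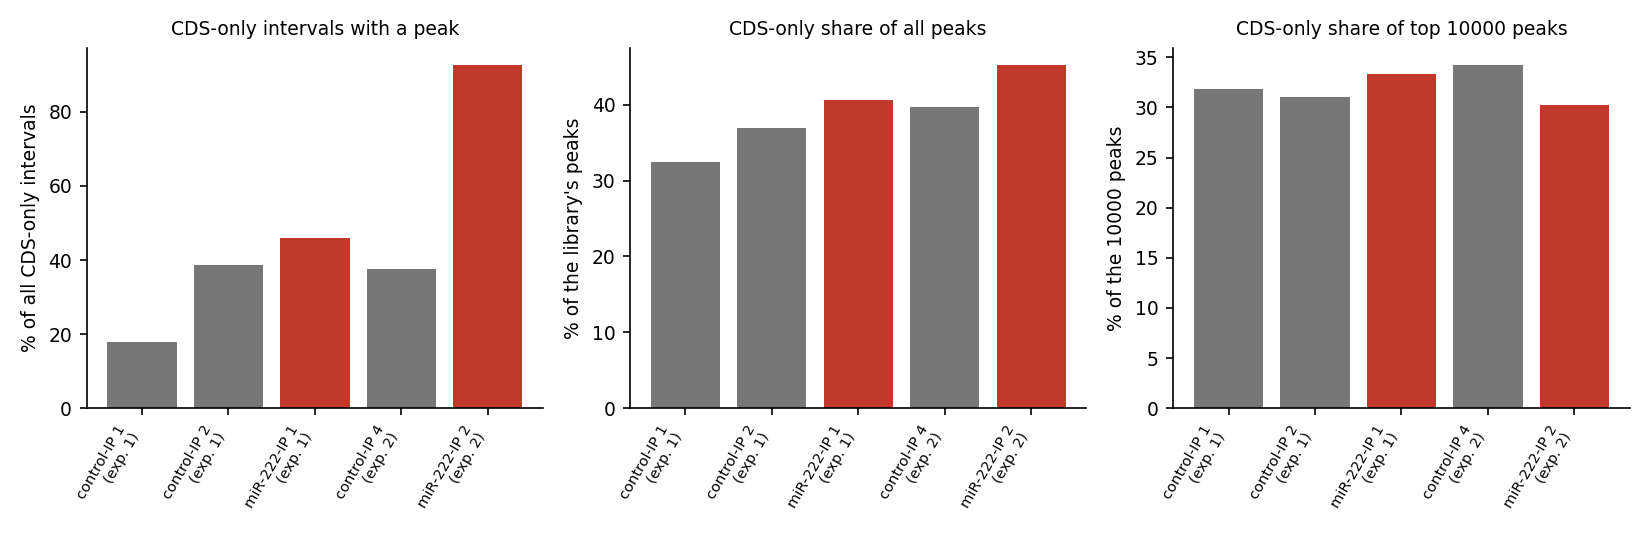
Left, the percent of the 18321 CDS-only intervals with a peak in each library; middle, the CDS-only percent of each library's own peaks; right, the same among its 10000 highest peaks. Grey bars are control-IPs and red bars miR-222-IPs, 1 library per bar. miR-222-IP 2 covers 92.7% of the intervals, while all 5 libraries lie between 30.3 and 34.3% on the right.

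CDS-only intervals followed the shape of exons. Of the 18270 that lay over the transcript with the longest coding sequence of their gene, 16323 (89.3%) lay over 1 coding exon, 1549 over 2 and 398 over 3 or more. The median exon under a 1-exon interval was 155 bp long and the median interval 326 bp wide. Intervals ran past the upstream exon end by a median of 88 bp (middle 50% from 64 to 103 bp) and past the downstream end by 87 bp (62 to 104 bp). Both ends were passed in 88.2%, and 593 intervals ended inside their exon on both sides. Coding sequence filled a median of 48.4% of an interval, and 606 intervals were wholly coding. The shortest coding overlaps were 25, 28 and 33 bp, and on the other side of the rule 304 intervals with coding sequence were left out for 1 to 9 bp of untranslated sequence.

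Longer exons lay under an interval more often. Of the 74495 coding exons of these genes 27.7% lay under a CDS-only interval. The share was 3.38% for exons of up to 50 bp, 15.7% from 51 to 100 bp, 29.1% from 101 to 150 bp, 37.8% from 151 to 200 bp and 73.0% above 1000 bp. Exons under an interval had a median length of 149 bp and the others of 114 bp. Scores were higher over exons of 301 to 500 bp than over those of 51 to 100 bp: in miR-222-IP 2 the median was 29 over exons of 51 to 100 bp and 46.3 over exons of 301 to 500 bp. In the other libraries the medians of these 2 classes were 27.4 to 28.4 and 33.7 to 39.2. Over longer exons the medians were lower again, at 43.6 (501 to 1000 bp) and 39.5 (above 1000 bp) in miR-222-IP 2, and at 27.3 and 30.6 in control-IP 1.

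**Figure D2:**
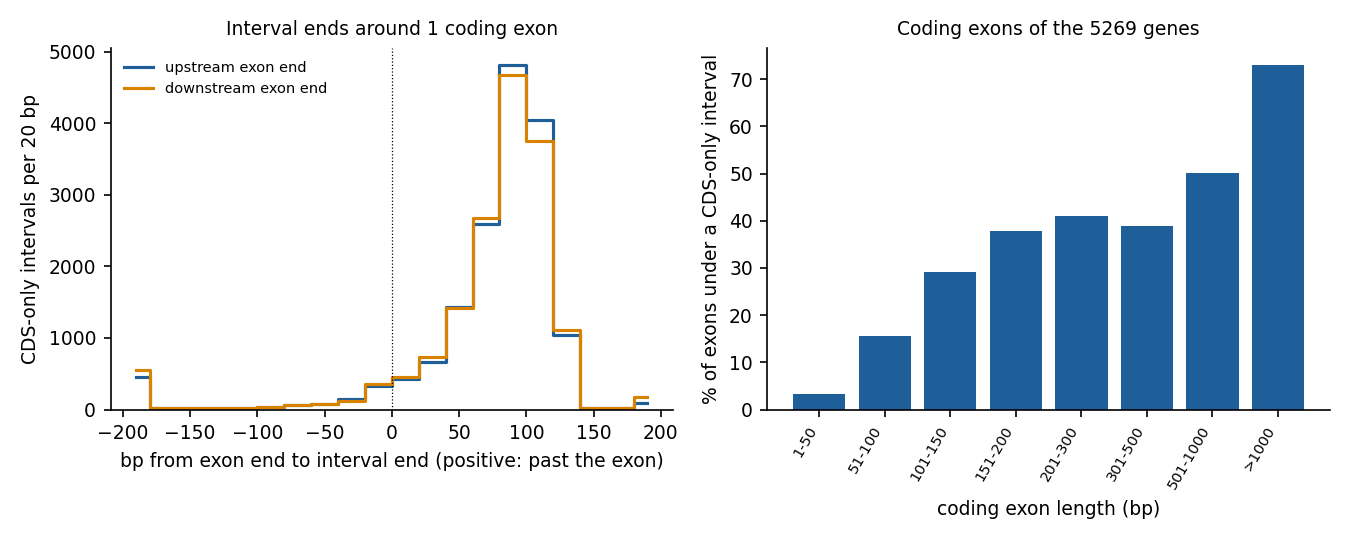
Left, distance in bp from the end of the coding exon to the end of the interval for 16323 intervals over 1 coding exon, in steps of 20 bp, with the outermost steps holding all values beyond them. Right, the percent of coding exons of each length class that lay under a CDS-only interval, from 3.38% to 73.0%. Both interval ends peak shortly before 100 bp past the exon.

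Fewer intervals lay at the ends of the coding sequence than in its middle. When the coding sequence was divided into 10 equal parts, the first held 6.71% of intervals, each of the next 5 between 11.8 and 12.5%, and the last 4 held 10.9, 10.2, 8.39 and 3.32%. The median distance to the stop codon was 1154 bases. The rule itself lowers the ends, because exons that also carry untranslated sequence are excluded; 403 intervals lay over the first coding exon and 337 over the last. The exon had the same coding start and end in every protein-coding transcript of the gene for 48.6% of intervals. Exons that are always coding but differ in a boundary are not counted in this share. The coding parts had a median GC content of 49.3%, against 50% in coding exons under no interval, 42.4% in the non-exonic parts of the same intervals and 45.0% in the 3′UTR parts of 3′UTR-only intervals.

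CDS-only peaks scored lower than 3′UTR-only peaks of the same library. The medians were 30.8 and 34.7 in control-IP 1, 32.7 and 38.4 in control-IP 2, 32.4 and 37.8 in control-IP 4, 32.4 and 38.9 in miR-222-IP 1, and 36.1 and 45.4 in miR-222-IP 2. The mean difference was −0.24 ± 0.06 on the log2 scale (SD, 5 of 5 libraries lower; exact sign-flip permutation p = 0.062, the smallest that 5 libraries allow). The direction turned when widths were matched. Among peaks of 250 to 450 bp, CDS-only peaks scored higher by 0.12 on the log2 scale, from 0.01 to 0.20 in the libraries (exact permutation p = 0.062). The median width was 333 bp for CDS-only and 758 bp for 3′UTR-only intervals.

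The 10 genes with the most CDS-only intervals had 5.48 (Dock2) to 105.6 kb (Ttn) of coding sequence. Macf1, which links actin to microtubules, held 63 intervals, of which 5, 28 and 31 had a peak in control-IPs 1, 2 and 4, 41 in miR-222-IP 1 and 61 in miR-222-IP 2. Dst, a related linker, held 52. The other genes at the top were the guanine nucleotide exchange factors Dock8 (37) and Dock2 (31) of leukocytes, the ubiquitin ligases Mycbp2 (34) and Birc6 (31), the autophagy protein Wdfy3 (34) and the endocytic receptor Lrp1 (32). Per kb of coding sequence Dock8 reached 5.87 intervals, Dock2 5.65, Macf1 2.85 and Dst 2.25.

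Titin (Ttn), the molecular spring of the sarcomere, held 59 intervals and nebulin (Neb), the ruler of its thin filament, 55. Peaks covered all 59 Ttn intervals in miR-222-IP 2, 7 in miR-222-IP 1, 2 in control-IP 1, 1 in control-IP 2 and none in control-IP 4. For Neb the numbers were 55, 3, 1, 1 and 1. An interval was counted if any library listed a peak there. Most of these intervals entered through miR-222-IP 2, so its full cover of them is set largely by that rule. The rank of both genes by number of intervals rests mostly on the same library. The median Ttn score in miR-222-IP 2 was 39.1 and that of Neb 38.3. Among the 346 coding exons of Ttn intervals were sparse, at 0.558 per kb, against 2.56 per kb in Neb.

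The sarcomere list as a whole followed these genes. Of its 38 genes 34 had an exonic interval and 26 a CDS-only interval. Its 248 CDS-only intervals had a peak 247 times in miR-222-IP 2, 30 times in miR-222-IP 1, and 15, 16 and 13 times in control-IPs 1, 2 and 4. These are 99.6, 12.1, 6.05, 6.45 and 5.24% of the list, while all CDS-only intervals stood at 92.7, 45.8, 17.9, 38.6 and 37.7%. Ldb3, a Z-disc protein, held 10 intervals with a median score of 68.5, and Mybpc1, a myosin-binding protein, 10 with a median of 37.0, all of them in miR-222-IP 2 alone. Myh3, the embryonic myosin heavy chain, held 12, of which 2 or 3 were also found in each other library. The summed scores of muscle markers, given above, were also highest in miR-222-IP 2, and so was the list length. The part of either in this pattern was not tested. Most of the 248 intervals entered through miR-222-IP 2, so its share of 99.6% is set largely by the rule that counts any listed peak.

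Chromatin regulators and large E3 ligases had CDS-only intervals in every gene listed. All 34 genes of the list had a CDS-only interval, against 53.8% of the protein-coding genes with an exonic interval. The listed genes are long, with 4.80 (Smarca2) to 16.8 kb (Kmt2d) of coding sequence, and the comparison was not matched for length. Per kb of coding sequence they held 0.245 (Kmt2b) to 3.71 intervals (Smarca4). Their 448 intervals had a peak in 36, 192 and 146 cases in control-IPs 1, 2 and 4, in 191 in miR-222-IP 1 and in 412 in miR-222-IP 2. As shares of the list these were 8.04, 42.9, 32.6, 42.6 and 92.0%, against 17.9, 38.6, 37.7, 45.8 and 92.7% of all CDS-only intervals. The acetyltransferases Crebbp (24 intervals) and Ep300 (16), the ligases Herc2 (30), Ubr4 (24) and Huwe1 (22) and the helicase Smarca4 (18) held the intervals named here from that list. The giant cytoskeletal and linker list had CDS-only intervals in 16 of 20 genes, with 221 intervals, where the share over all annotated protein-coding genes was 24.1%. Among genes with an exonic interval the shares were 84.2% of this list and 53.8% of all protein-coding genes, again not matched for length. Utrn, the dystrophin relative utrophin, held 29. Of these 4 had a peak in control-IP 2, 2 in miR-222-IP 1, none in the other control-IPs and all in miR-222-IP 2. Most of them were counted only through that last library.

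Other lists were counted in the same way. Of all annotated protein-coding genes 24.1% had a CDS-only interval, and 53.8% of those with an exonic interval. Motors and transport genes had CDS-only intervals in 15 of 17 genes (88.2%), with 20 in the dynein heavy chain Dync1h1. Translation factors had them in 15 of 18 genes (83.3%). Of their 84 intervals 25 to 59 were seen in the libraries other than miR-222-IP 2. These are 29.8 to 70.2%, against 17.9 to 45.8% of all CDS-only intervals. In the Ago and GW182 family list 10 of 13 genes (76.9%) had a CDS-only interval. The deadenylase scaffold Cnot1 held 14, Dicer1 12, and Tnrc6b, a GW182 protein that binds Ago, 9. Ago2 itself held 3, with a peak in 2 of them in control-IP 2 and in 1 in miR-222-IP 2. Of 416 zinc finger genes 83 had a CDS-only interval, or 40.1% of those with an exonic interval, which is below the 53.8% of all protein-coding genes. No test was made of these shares.

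**Figure D3:**
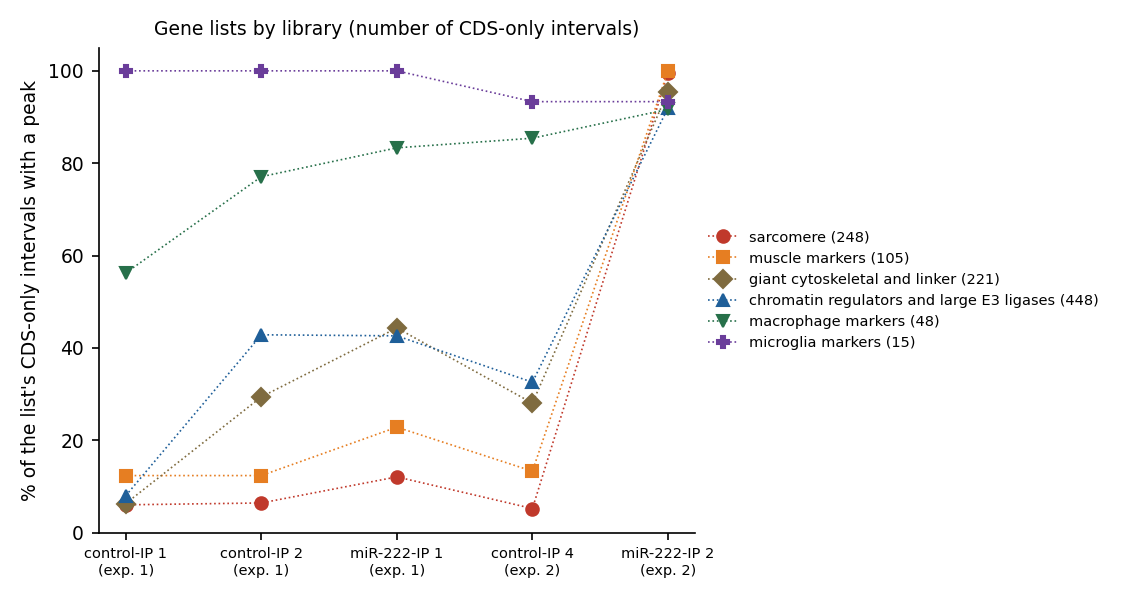
Percent of each gene list's CDS-only intervals with a peak in each library, with the number of intervals of the list in brackets; dotted lines only join points of 1 list. Of 248 sarcomere intervals 13 to 30 have a peak in the other libraries and 247 in miR-222-IP 2, while those of macrophage (48) and microglia (15) markers are found in most libraries. Any listed peak makes an interval count, so a library that supplied most of a list is high by that rule.

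In 583 genes every exonic interval was CDS-only. The 5 with the most were Crebbp (24), the ubiquitin ligase Ubr3 (22), the deubiquitinase Usp34 (22), the Mediator subunit Med14 (14) and Ankhd1 (12). For Crebbp 2, 13 and 14 intervals had a peak in control-IPs 1, 2 and 4, 15 in miR-222-IP 1 and 24 in miR-222-IP 2. For Med14 the counts were 0, 5, 3, 7 and 14 in the same order. Per kb of coding sequence the densest genes with at least 10 intervals, a rule added after the values were seen, were the ketone-using enzyme Oxct1 (8.97) and the ribophorin Rpn2 (7.92).

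The 10 intervals with the highest mean scores lay in 7 genes. An interval over exon 5 of Arsb, the lysosomal arylsulfatase B (chr13:93861961-93862452), scored 207, 170 and 256 in control-IPs 1, 2 and 4 and 258 and 240 in the miR-222-IPs. A further Arsb interval, over exon 4, scored between 178 and 230. Sirpa, the receptor that reads CD47 on other cells and is abundant on macrophages, had 3 of the 10 highest intervals. Over its exon 2 (chr2:129608799-129609568) the scores were 198, 158 and 242 in the control-IPs and 254 and 203 in the miR-222-IPs. The other 5 lay in Rps24, of the small ribosomal subunit, Gm2a, the activator of ganglioside breakdown, the integrin chain Itgb5, Bin2 of leukocytes and the chaperone Hsp90b1. Rps24 scored 186 to 212 in the 5 libraries, whereas Itgb5 ran from 134 in control-IP 1 to 246 in control-IP 2. The highest score of any peak was 350 in control-IP 1 and 348 in miR-222-IP 2, although the lists differed in length.

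Scores of CDS-only intervals agreed between libraries to different degrees. Spearman's rho was 0.790 between miR-222-IP 1 and control-IP 4 (5976 intervals with a peak in both) and 0.734 between miR-222-IP 1 and control-IP 1. Control-IP 2 reached 0.435 to 0.522 with the other libraries, its own experiment included. The libraries of a pair share the exons and genes, and these values are a description.

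The change with miR-222 was then formed for the 2425 CDS-only intervals with a peak in all 5 libraries, as the log2 ratio of scaled scores, miR-222-IP over the mean control-IP of its experiment. Each library was scaled to its median ratio against the average library. The median ratio was 0.03 in experiment 1 and −0.09 in experiment 2. The spread of the ratio over intervals was 0.45 and 0.51 (SD). The log2 ratio between the 2 control-IPs of experiment 1 had an SD of 0.67. That value compares 2 single libraries, while the ratio of experiment 1 uses the mean of its control-IPs. The SDs are therefore not like measures. Both miR-222-IPs lay above every control-IP of their experiment in 434 intervals (17.9%), against 17.4% of all 7935 intervals with a peak in all 5 libraries. They lay below in 459 (18.9%), against 18.4%. These shares were near the background. The median ratio over CDS-only intervals, averaged over experiments, was −0.03 (exact permutation p = 0.833), and it was 0.03 without control-IP 4.

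The direction depended on scaling and on score. Without scaling 52.9% of CDS-only intervals lay above and 3.30% below, and with scaling by the total of the scores 1.44% lay above and 34.4% below. When all intervals were divided by mean score into 4 classes of equal size, the median ratio of CDS-only intervals in experiment 2 was 0.06, −0.03, −0.18 and −0.43 from the lowest to the highest class. In the highest class 3.77% lay above and 34.9% below. Over all intervals the highest class also had the lowest median, −0.29, and 33.7% lay below.

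CDS-only and 3′UTR-only intervals were compared for the same ratio. The medians of 3′UTR-only intervals were 0.04 and 0.08, and the CDS-only medians lay lower by 0.01 in experiment 1 and by 0.17 in experiment 2. The mean difference of −0.09 gave an exact permutation p of 0.333. It was 0.0035 without control-IP 4, −0.02 without miR-222-IP 2 and −0.18 without miR-222-IP 1. Against intervals over coding sequence and 3′UTR it was −0.04 (exact permutation p = 0.833). With 1 miR-222-IP per experiment neither comparison can reach 0.05.

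**Figure D4:**
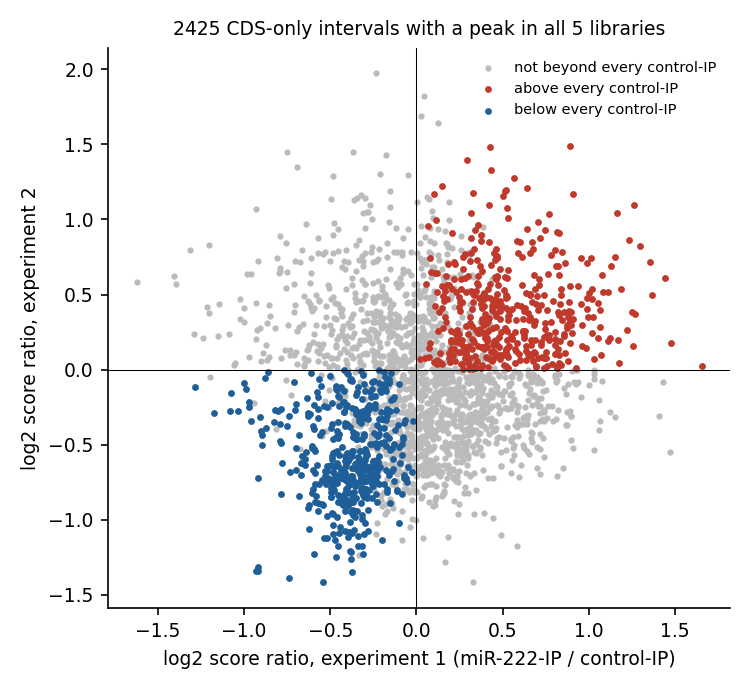
Each point is 1 of 2425 CDS-only intervals with a peak in every library; axes give the log2 ratio of scaled scores, miR-222-IP over mean control-IP, in experiment 1 (horizontal) and experiment 2 (vertical). Red marks the 434 intervals above every control-IP in both experiments and blue the 459 below. Scaling centres the ratios, so their balance around 0 is no result.

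The 5 highest ratios lay in 5 genes. Dpp8, a cytosolic dipeptidyl peptidase, scored 31.9 and 45.8 in control-IPs 1 and 2 and 90.7 in miR-222-IP 1, then 30.3 in control-IP 4 and 128 in miR-222-IP 2, with log2 ratios of 0.89 and 1.49. The kinase Dyrk1a scored 36.2, 20.8 and 42.2 in the control-IPs and 92.3 and 136 in the miR-222-IPs (1.26 and 1.10). Gab1, an adaptor below receptor tyrosine kinases, scored 21.7, 25.3 and 44.4 against 73.8 and 118. The remaining ones were the chromatin protein Epc2 (mean ratio 1.10) and Rock2, a kinase that acts on the actin skeleton (1.05). In all 5 both miR-222-IPs lay above every control-IP, which is how they were chosen, and no single interval can pass a test with 6 arrangements.

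Of the 5 lowest ratios 4 are described. Fcrls, an Fc receptor-like protein of microglia, scored 75.9, 80.5 and 59.5 in control-IPs 1, 2 and 4 and 53.2 and 36.1 in the miR-222-IPs. Eif4g2, a translation factor, scored 59.6, 77.0 and 52.7 against 45.8 and 31.4. Ssh2, a phosphatase of cofilin, had a mean ratio of −1.06, and the mitochondrially encoded mt-Cytb, the only CDS-only interval on that chromosome, −1.13. Among the 25 macrophage marker intervals in all 5 libraries 14 lay below and none above, with median ratios of −0.30 and −0.66. Of 14 microglia marker intervals 13 lay below and none above. These shares below, 56.0 and 92.9%, stand beside 18.9% of all CDS-only intervals and 34.9% of those in the highest score class, which held 8 of the 25 and 4 of the 14. The 10 muscle marker intervals, some of them in Mef2c, had medians of 0.02 and −0.02, with 1 above. The translation factors had 8 of 19 (42.1%) below and 3 above.

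The miR-222 7-mer was rare in CDS-only intervals. It stood anywhere on the strand of the gene in 279 of 18318 intervals (1.52%, exact 95% interval 1.35 to 1.71%), against 2.54% of 38630 exonic intervals. These shares were not matched for interval width. In 160 of the 279, or 57.3%, the 7-mer lay outside coding sequence alone, so that 119 intervals (0.65%) held it in the coding part. Its density was 0.030 per kb in coding parts, 0.050 per kb in the non-exonic parts, 0.025 per kb in coding exons of the same genes under no interval and 0.082 per kb in the 3′UTR parts of 3′UTR-only intervals. Peaks carry no strand, and the strand of the gene was used.

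Of 14 miRNA families searched in the same way that of miR-222 was the least dense in coding parts. The same held in coding exons of these genes under no interval, with 0.025 per kb against 0.041 for miR-30, the next family. The rank is therefore not particular to CDS-only intervals. Coding parts held fewer matches per kb than 3′UTR parts for 11 families, and the ratio was 0.316 for miR-30, 0.367 for miR-222 and 0.551 for miR-26. It was above 1 for let-7 (1.27), miR-378 (1.23) and the muscle miRNA miR-133 (1.38). Against coding exons under no interval, 7 families were denser and 7 were not. The muscle miRNAs miR-1 and miR-206 share a seed, and their match stood at 0.068 per kb in coding parts and 0.070 per kb in the coding exons under no interval. The 7-mers of 6 families, that of miR-222 among them, contain a stop triplet (TAA, TAG or TGA).

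**Figure D5:**
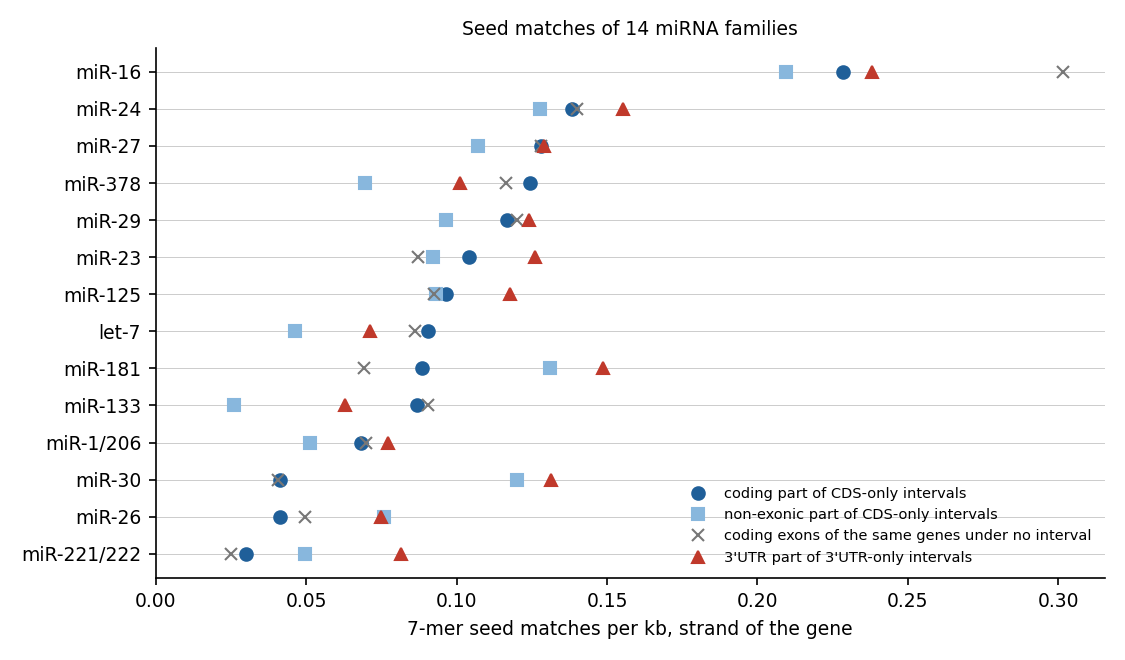
Matches per kb to the seed 7-mers of 14 miRNA families on the strand of the gene, in 4 kinds of sequence named in the legend; families are ordered by density in the coding parts of CDS-only intervals. The miR-222 family, with miR-221, is lowest there (0.030 per kb) and stands at 0.082 per kb in 3′UTR parts. It is also lowest in coding exons under no interval (0.025 per kb).

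The match was unevenly placed in the reading frame. Of 120 coding 7-mers none began at the first base of a codon, where the match would read ATG and then the stop TAG, 103 began at the second and 15 at the third, and 2 lay outside the transcript used. All 7 sites shown above began at the second base of a codon.

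Peaks were then counted with and without a 7-mer. With a 7-mer anywhere, intervals had a peak in 20.8, 36.9 and 35.1% of cases in control-IPs 1, 2 and 4 and in 48.7 and 96.4% in the miR-222-IPs. Without one the shares were 17.8, 38.6 and 37.8% and 45.8 and 92.7%. The difference between conditions in this difference was 4.36 percentage points (2.33 in experiment 1 and 6.39 in experiment 2; exact permutation p = 0.333). It was 0.03 without miR-222-IP 2, 1.95 without control-IP 2 and 2.18 without control-IP 4, and 0.807 with a 6-mer and 7.64 with an 8-mer. With a coding 7-mer it was −1.64 points, with −8.83 in experiment 1 and 5.54 in experiment 2 (exact permutation p = 0.667). Among the 42 intervals with a 7-mer and a peak in all 5 libraries 8 lay above every control-IP and 3 below, and their median ratios were 0.03 and −0.04, against 0.03 and −0.09 without a 7-mer. Of the 19 with a coding 7-mer 4 lay above and none below. The shares above, 19.1 and 21.1%, were near the 17.9% of all CDS-only intervals. The counts below, 3 of 42 and 0 of 19, were lower than the 18.9% of all CDS-only intervals that lay below. This difference was not tested.

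The remaining 12 of the 15 highest intervals seen in both miR-222-IPs alone held the 7-mer in flank, outside coding sequence. Flank outside annotated exons is not part of the spliced mRNA. The 12 intervals lay in Rufy3, Idh1, Tmem39a, Anapc7, Ccar1, Washc5, Chchd3, Myo6, Cox7a2, Dhx9, Hsd17b4 and Cpne3. Idh1, the cytosolic isocitrate dehydrogenase, scored 34.5 and 32.9, and Cox7a2, a subunit of cytochrome oxidase, 25.5 and 30.5. Their lower score of the pair ranged from 23.9 to 34.

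Strong 7-mer intervals present in all libraries are shown for contrast. Of the 5 highest, those of Bin2, Ctsc and Dctn4 held the match in flank, and those of Rnf130, a ubiquitin ligase, and Pabpc1, the poly(A)-binding protein, in coding sequence.
Rnf130: atgtactgataATGTAGCctttgatatgg
Pabpc1: gaagccactgtATGTAGCtttagctcagc
The Rnf130 site (chr11:50095798-50095804, plus strand, exon 7) lay under an interval that scored 164, 83.6 and 173 in control-IPs 1, 2 and 4 and 173 and 164 in the miR-222-IPs. The Pabpc1 site (chr15:36599353-36599359, minus strand, exon 8) lay under scores of 128, 84.3 and 130 in the control-IPs and 129 and 115 in the miR-222-IPs. In experiment 2 the miR-222-IP scored below the control-IP at both sites, and in experiment 1 control-IP 2 was the low library.

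Ahnak, a giant scaffold protein with a coding exon of 16623 bp, is a miR-222 target that the study examined. It held 2 CDS-only intervals, both inside exon 5 and both with a peak in miR-222-IP 2 alone. The one at chr19:9002545-9003192 scored 33.0 and contained the 7-mer at chr19:9003101-9003107 on the plus strand.
Ahnak: tgtagacttaaATGTAGCtgcacctaaag
The other, at chr19:9014980-9015886, scored 43.3 and held no coding 7-mer. Neither place had a listed peak in a control-IP or in miR-222-IP 1. A peak in miR-222-IP 2 alone was found in 37.5% of all CDS-only intervals.

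Naca, Coro6 and Fxr1, genes whose splicing is regulated in muscle, were looked up after the values were seen. In Naca an interval lay in the 5916-bp exon 3, at chr10:128040604-128041463 with a score of 34.5. Coro6 had an interval over exon 7 (20.4) and Fxr1 one over the 81-bp exon 15 (34.1). All 3 intervals were listed for miR-222-IP 2 alone, as were 37.5% of all CDS-only intervals.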

How the data were processed

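The authors aligned reads of Ago2-bound RNA to mm10 with SOAPSplice, converted them with bedtools and called peaks in each library with macs2. The deposited lists give each peak's position and its score, −log10 of the caller's p, above a minimum of 20. They hold no read counts, so the count model planned for that case was not fitted, read depth per library is unknown, and score ratios mix enrichment with depth. cDNA was amplified before fragmentation, and molecules were not tagged. All 6 libraries were deposited and 5 were merged. An interval took the highest score of each library.

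Merging, classes and statistics used Python 3.11.15 with numpy 2.4.6, pandas 2.3.3 and scipy 1.17.1, GENCODE M21, and GRCm38 read with pysam 0.24.0. A gene's transcript was the one with the longest coding sequence. Mature miRNAs came from RefSeq; miR-486a-5p was not searched, and miR-206-3p, miR-133b-3p and miR-378c stood for relatives with the same seed. Condition labels were permuted exactly within experiments (6 arrangements, p of at least 0.17) and score differences over libraries by sign flips (32, at least 0.062), both two-sided. The functions passed 8 of 8 checks on simulated data. The 95% interval is the exact binomial one and covers counting error only.

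Genes were named if they held the most CDS-only intervals (10 genes, and 5 among genes with no other exonic interval), if an interval had one of the 10 highest mean scores or one of the 5 highest or 5 lowest ratios beyond every control-IP, if it held a miR-222 7-mer (15 seen in both miR-222-IPs alone, 5 with the highest mean score in all libraries), and if they were Ahnak or in a gene list. An interval that this rule names is not reported here. The members and lists were chosen with earlier results of these data known. Alternatives changed the score minimum, merging, coding overlap, untranslated regions, scaling, missing peaks, experiment block, seed length and each library in turn.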

Additional observations from a re-analysis of the deposited data

Results flagged for a closer look

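Control-IP 3 had a median peak width of 32100 bp, far from the other 3 control-IPs at 362 to 411 bp. About 1 in 20 groups would be picked out in this way by chance. The library had been left out of the merge.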

How the results depend on the processing

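The number of CDS-only intervals was 5428 in 2464 genes at scores of 50 or more, 8425 where coding sequence filled at least 50% of the interval, 10482 in 3146 genes with control-IP 3 merged in, and 10251 with a peak in at least 2 libraries. Leaving out each library in turn gave 11593 (without miR-222-IP 2) to 18310 intervals in 4034 to 5264 genes. The difference in CDS-only share was −1.06 points among the 10000 highest peaks and −0.069 with at least 50% coding sequence, and 4.57 to 6.85 with a library left out. The score difference to 3′UTR-only peaks was 0.12 among peaks of 250 to 450 bp and −0.26 to −0.22 with a library left out. The median log2 ratio was 0.44 without scaling and −0.099 to 0.030 with a library left out, above 0 without control-IP 4 and without miR-222-IP 2. Without scaling 52.9% of intervals lay above every control-IP and 3.30% below, with scaling by the total of the scores 1.44% and 34.4%, and 11.3% lay above when experiments were not kept apart. With a library left out, and so fewer libraries to exceed, 24.1 to 42.6% lay above and 26.0 to 57.4% below. The difference to 3′UTR-only ratios was −0.18 (without miR-222-IP 1) to 0.0035 (without control-IP 4). The miR-222 match was found in 7.62% of intervals as a 6-mer, 0.448% as an 8-mer and 0.650% in the coding part. The difference in peaks with and without it was −1.64 points for the coding part and 0.03 to 6.37 with a library left out. Where no construction is named, the cause was not tested. In all, 158 values kept their direction and call, 20 moved and 8 changed sign. The lists give no read depth, so a peak below the minimum of 20 cannot be told from no signal.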
